A study of Mus musculus with 46 samples.

Results

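The response to an implant of dihydrotestosterone (DHT) was measured in the spinalis muscle of wild-type (WT) mice, as 6 libraries from WT mice with DHT implants against 5 libraries from WT mice with empty implants. These 11 libraries, of the 46 samples of the series, were chosen by their group labels alone, and every gene of the count table was examined. The series asks how alpha-actinin-3, the Z-disc protein of fast muscle fibres encoded by *Actn3*, bears on the response of skeletal muscle to androgens. It therefore compares WT with *Actn3* knockout (KO) mice, both after androgen was added by implant in females and after it was removed by orchidectomy (ORX) in males. The mice of the implant experiment were female and of strain C57BL6 in the labels, which the study's methods give as C57BL/6J. The implant was a piece of silastic tubing (1 cm) that lay subcutaneously at the scapulae and held 10 mg of DHT or nothing. It was given at 4 to 5 weeks of age, and the spinalis muscle was collected 6 weeks later. The KO groups, used here only to test whether the response differed by genotype, held 6 libraries with DHT and 5 with empty implants of the same sex, age and duration. For ORX the gastrocnemius muscles of WT males of the same strain were used, as 6 libraries after removal of the testes and 6 after sham surgery, with the operation at 8 to 10 weeks and the muscle studied 12 weeks afterwards. No label states that each library came from a separate animal, so the p-values measure the spread between these libraries. The columns of the count table were matched to the groups by their names, and the tags that tell the libraries of a group apart (such as 14KR) are in no label.

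The measured values are RNA sequencing reads counted per gene, given below as CPM, the count of a gene per 1000000 counts of its library after scaling for composition. WT-empty libraries held 37289993 (14KR), 46963391 (4KR), 40217733 (7KR), 49380990 (35KR) and 51183210 (49KR) counts. WT-DHT libraries held 51584843 (15KR), 50531987 (5KR), 53899279 (8KR), 52397791 (34KR), 34812381 (39KR) and 52705364 (50KR) counts. The tissue label was met by the 15 markers of skeletal muscle fibres, none of which was at 0 in any library. Together they summed to 312737 to 362253 CPM (median 338161) with empty implants and 250280.0 to 344393 CPM (median 296263) with DHT, and *Ttn*, which encodes the giant sarcomere protein titin, was the most abundant. *Xist*, transcribed from the inactive X chromosome of females, was read at 127 ± 13.7 CPM (SD, n = 5) with empty implants and 103 ± 10.8 CPM (n = 6) with DHT.

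WT-DHT libraries 39KR and 50KR stood apart from the other WT-DHT libraries. Their 10 most abundant genes took 43.2% and 39.4% of the counts, against 34.5% to 37.2% in the remaining 4. Genes of mitochondrial DNA took 5.33% and 5.07% of their counts, against 8.61% to 11.5%, and their scaling factors were 0.846 and 0.897, against 0.948 to 1.07. WT-empty libraries ranged from 36.2% to 39.03% for the 10 most abundant genes and from 3.44% to 9.56% for mitochondrial DNA. Within that group 4KR and 7KR had the lowest mitochondrial shares (3.95% and 3.44%, against 6.07% to 9.56% in the rest). Their 10 most abundant genes took 36.2% and 37.8%, against 36.5% to 39.03%. Leading counts are given with and without 39KR and 50KR, a choice made after seeing the data. No fit left out 4KR and 7KR together, so leaving out 39KR and 50KR changed the WT-DHT group only.

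Androgens are steroid hormones that act largely by changing the transcription of genes, in muscle in fibres, satellite cells and motor neurons. DHT is formed from testosterone, is the more potent of both and cannot be converted to oestrogen. Androgens support the mass of skeletal muscle, most strongly in the muscles of the perineum, and enzymes of polyamine synthesis are among the classic androgen-regulated genes of male accessory organs and muscle.

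DHT changed the level of many genes in WT spinalis, with strong rises in *Amd1*, *Odc1* and *Smox* of polyamine metabolism and in *Cdk19* and *Musk*, and strong falls in *Mybph*, *Fgfbp1*, *Casr* and the cardiac actin gene *Actc1*. A gene was called when its q, the p of edgeR's quasi-likelihood F test adjusted over all 16987 genes by the Benjamini-Hochberg method, was at most 0.01. With DHT 1914 genes were called (11.3% of the genes tested), 1126 of them higher (6.63%) and 788 lower (4.64%). Without 39KR and 50KR the count was 1689, 980 higher and 709 lower, and 1536 of the 1914 genes (80.3%) were called again. Most changes were moderate: the median log2 fold change was 0.60 among the genes called higher and −0.59 among those called lower. A log2 fold change of at least 1 in size was reached by 305 rises and 206 falls, and of at least 3 by 46 rises and 17 falls. The values of the WT-empty and WT-DHT libraries did not overlap in 1520 of the called genes and overlapped in 394, and over all 16987 genes they did not overlap in 1921. Genes named below whose call was lost under another setting are listed by name at the end. Over all genes the median log2 fold change was −0.0063, or −0.075 under library-size scaling, where 771 genes were called higher and 997 lower. Each gene list below is set against this median and the 11.3% called. Lists and their members were chosen with earlier results of these data known, so a share above 11.3% is a description and not a test. Protein-coding genes made up 89.2% of the called genes and 78.7% of all genes.

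The first principal component of the 11 WT libraries held 38.3% of the variance in log2 CPM. WT-empty libraries scored between −35.72 and −34.45 on it and WT-DHT libraries between 25.15 and 35.12, so that the groups did not overlap. On the second component, with 11.6% of the variance, the scores of both groups overlapped. WT-empty libraries 4KR (27.98) and 7KR (12.79) and WT-DHT libraries 39KR (25.55) and 50KR (22.72) had positive scores on it. The remaining libraries of both groups had negative scores.

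Polyamines, the small cations putrescine, spermidine and spermine, are made from ornithine and decarboxylated S-adenosylmethionine (SAM). Of 13 measured genes of polyamine synthesis and turnover, 8 rose and 5 did not pass the test (61.5% called), with a median log2 fold change of 0.31. *Amd1* (ENSMUSG00000075232), which encodes the SAM decarboxylase that supplies the aminopropyl groups, stood at 82.6, 79.6, 79.5, 93.2 and 69.1 CPM in the 5 WT-empty libraries. In the 6 WT-DHT libraries it stood at 774 (lowest), 891 (median) and 979 (highest) CPM. Every DHT library was far above every empty library. The log2 fold change was 3.45 (SE 0.11, edgeR q = 3.1e-17). Reads of *Amd1* and its near-identical copies *Amd2* (log2 fold change 3.43) and *Amd-ps3* (3.50) may have been split between them, so the values of the separate copies are uncertain, and the 8 rises of the list count both *Amd1* and *Amd2*. *Smox* (ENSMUSG00000027333), encoding spermine oxidase, which turns spermine back into spermidine, was read at 94.6, 94.3, 90.3, 103 and 76.4 CPM with empty implants and at 599 (lowest), 762 (median) and 1009 (highest) CPM with DHT. Again the groups lay well apart, with the DHT libraries more spread out than the empty libraries. The log2 fold change of *Smox* was 3.06 (SE 0.16, q = 6.8e-13).

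*Odc1* (ENSMUSG00000011179), encoding ornithine decarboxylase, the enzyme that opens the pathway, had 54.2, 58.3, 78.1, 52.4 and 65.03 CPM in WT-empty libraries and 253 (lowest), 305 (median) and 355 (highest) CPM in WT-DHT libraries. The lowest DHT value exceeded the highest empty value. *Odc1* rose by 2.32 on the log2 scale (SE 0.13, q = 1.4e-12). Per kb of exon, *Amd1* was at 22.8 CPM with empty implants and 249.97 CPM with DHT, *Smox* at 23.5 and 197, and *Odc1* at 18.1 and 90.3. The spermine synthase gene *Sms* rose less (0.52), as did *Azin1* (0.41), whose product, antizyme inhibitor, protects ornithine decarboxylase from degradation. Antizymes, which mark the decarboxylase for degradation, were called higher as well, *Oaz1* by 0.31 and *Oaz2* by 0.31. Under library-size scaling *Azin1*, *Oaz1* and *Oaz2* were not called, which leaves 5 of the 8 rises. Among the members that were not called, *Srm* (spermidine synthase) had a log2 fold change of −0.38, *Sat1* (spermidine/spermine acetyltransferase) −0.33 and *Paox* (polyamine oxidase) −0.42. In the KO libraries 5 members of the list were called higher and 1 lower, where 2.86% of all genes were called higher and 1.75% lower.

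**Figure D1:**
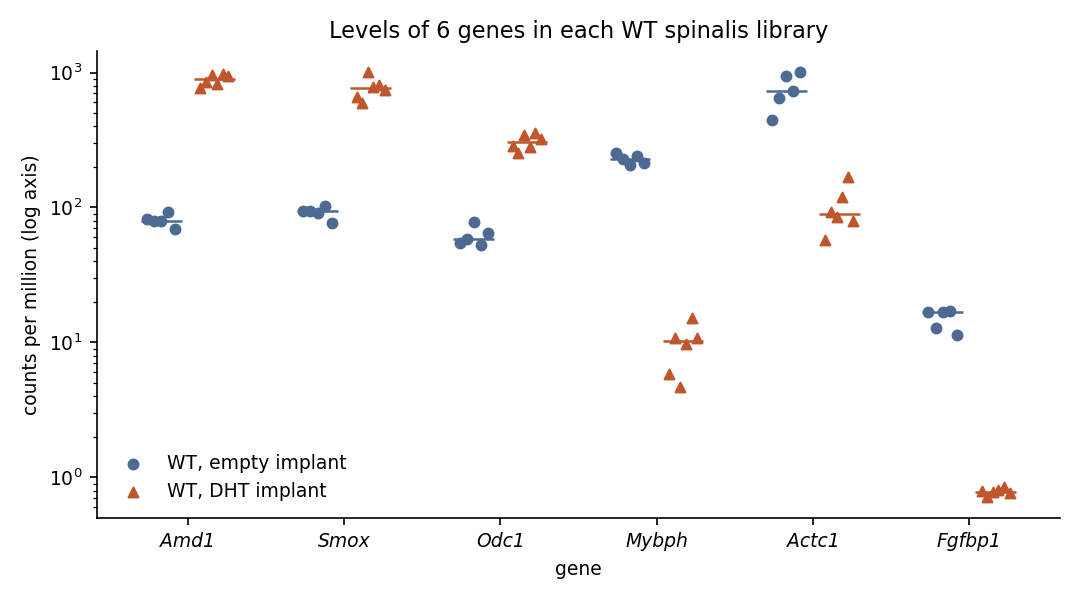
CPM (log axis) of 6 genes in each of the 5 WT-empty (circles) and 6 WT-DHT (triangles) spinalis libraries, with a line at each group's median. *Amd1*, *Smox* and *Odc1* were higher and *Mybph*, *Actc1* and *Fgfbp1* lower in all 6 DHT libraries than in any empty library.

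The methionine cycle supplies and recycles SAM. Of its 14 measured genes 4 rose, 2 fell and 8 did not pass the test (42.9% called, median log2 fold change 0.054, or −0.018 under library-size scaling). The rises were in *Mtr* (0.93, q = 4.7e-10), encoding methionine synthase, *Mat2a* (0.69), encoding the SAM synthetase of tissues other than liver, *Ahcy* (0.58), encoding adenosylhomocysteinase, and *Adi1* (0.85), an enzyme of the methionine salvage pathway. *Gnmt*, encoding glycine N-methyltransferase, fell (−2.15) from a mean of 1.08 to 0.231 CPM, and *Mtap*, which cleaves the methylthioadenosine left by polyamine synthesis, had a log2 fold change of −0.42.

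Among the 12 rises with the smallest p, *Cdk19* (ENSMUSG00000038481), which encodes a kinase of the Mediator complex, was at 12.1, 10.9, 12.7, 14.6 and 13.4 CPM with empty implants and at 86.8 (lowest), 91.2 (median) and 104 (highest) CPM with DHT. Both groups were tight and far apart. Its log2 fold change was 2.86 (SE 0.085, q = 1.4e-17). *Anxa7* (ENSMUSG00000021814), encoding a calcium-dependent phospholipid-binding annexin, had 48.7, 52.1, 52.8, 52.4 and 48.2 CPM without and 137 (lowest), 146 (median) and 157 (highest) CPM with DHT. No values overlapped, and the log2 fold change was 1.52 (SE 0.063). *Slc25a30* (ENSMUSG00000022003), a carrier of the inner mitochondrial membrane, was at 7.47, 11.5, 9.95, 8.96 and 5.76 CPM in WT-empty libraries and 121 (lowest), 132 (median) and 159.8 (highest) CPM in WT-DHT libraries. The groups were separate, and *Slc25a30* rose by 3.96 (SE 0.19, q = 8e-14). The calcium channel subunit gene *Cacna2d4* rose by 4.23, the Arp2/3 complex gene *Actr3b* by 4.58, the N-terminal methyltransferase gene *Ntmt1* by 2.34, the intracellular protease inhibitor gene *Serpinb6a* by 1.82, the membrane protein gene *Serinc3* by 1.74 and *1700001O22Rik*, for which no role is given here, by 5.43.

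The 8 largest rises, taken among called genes with a mean log2 CPM of at least 1, were led by *Tmem132b*, a transmembrane protein gene, at 0.313 CPM on average with empty implants and 22.7 CPM with DHT (log2 fold change 6.18, q = 1.6e-13). *Slc30a2* (ENSMUSG00000028836), encoding a zinc exporter, was at 0.701, 0.281, 0.444, 0.916 and 0.340 CPM in WT-empty and 13.01 (lowest), 17.3 (median) and 24.1 (highest) CPM in WT-DHT libraries. The gene was barely read in any empty library and clearly present in all DHT libraries. It rose by 5.02 (SE 0.30, q = 6.1e-12). The remaining large rises were in *Slc15a5* (5.35), a transporter of the peptide carrier family, *Tekt1* (4.92), encoding tektin of ciliary microtubules, *Neto2* (4.23), encoding an auxiliary subunit of kainate receptors, and again *1700001O22Rik*, *Actr3b* and *Cacna2d4*.

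The genes that fell with the smallest p were led by *Gstm2* (ENSMUSG00000040562), a glutathione S-transferase of the mu class, with 60.4, 53.02, 48.6, 45.9 and 45.5 CPM in WT-empty libraries and 7.49 (lowest), 8.80 (median) and 10.9 (highest) CPM in WT-DHT libraries. Every DHT value was far below every empty value. *Gstm2* had a log2 fold change of −2.51 (SE 0.098, q = 2.5e-15). *Casr* (ENSMUSG00000051980), encoding the calcium-sensing receptor, was at 26.9, 29.6, 26.2, 30.8 and 28.1 CPM and, with DHT, at 3.05 (lowest), 3.45 (median) and 3.93 (highest) CPM. The groups were tight and did not overlap, and the log2 fold change was −3.03 (SE 0.12, q = 6.2e-15). *Mybph* (ENSMUSG00000042451), encoding myosin-binding protein H of the thick filament, had the largest fall of these: 251, 227, 205, 241 and 213 CPM with empty implants and 4.68 (lowest), 10.2 (median) and 15.2 (highest) CPM with DHT. Every DHT library had lost most of the *Mybph* reads seen in the empty libraries, and the log2 fold change was −4.59 (SE 0.20, q = 2.2e-14). The adenosine A1 receptor gene *Adora1* overlaps *Mybph* on the opposite strand and also fell (−2.64).

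*Fgfbp1* (ENSMUSG00000048373), encoding a secreted carrier of fibroblast growth factors that is known from the neuromuscular junction, was at 16.9, 12.8, 16.9, 17.1 and 11.4 CPM in the empty group and 0.721 (lowest), 0.785 (median) and 0.849 (highest) CPM in the DHT group. All DHT libraries were below 1 CPM and all empty libraries above 10. *Fgfbp1* fell with a log2 fold change of −4.26 (SE 0.23, q = 6.7e-13). *Actc1* (ENSMUSG00000068614), encoding the cardiac alpha-actin of the heart and developing muscle, was at 446, 653, 942, 731 and 1008 CPM and, with DHT, 56.98 (lowest), 89.4 (median) and 167 (highest) CPM. The empty libraries varied among themselves, and still no DHT library reached the lowest of them. The log2 fold change of *Actc1* was −2.91 (SE 0.26, q = 7.3e-09). Other large falls were in *Stc2* (−3.86), encoding the secreted glycoprotein stanniocalcin, *Lrtm1* (−3.34), encoding a leucine-rich repeat membrane protein, and *Rasd2* (−3.23), encoding a small GTPase. Enzyme genes among the falls with the smallest p were *Dbt* (−1.40) and *Ivd* (−1.13) of branched-chain amino acid breakdown and *Adhfe1* (−1.94), encoding hydroxyacid-oxoacid transhydrogenase. The membrane protein gene *Tmem52* (−1.77) and the predicted gene *Gm6665* (−2.56) completed the 12.

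The library kit keeps the strand of the RNA, but how strand was handled when reads were assigned to genes is not given by the submitters. Unless it was used, reads of genes that overlap on opposite strands cannot be told apart. An overlap of exons was present in 29.6% of the called genes and 28.4% of all genes. Of the genes named here it concerned *Xist* (with *Gm26992*, *Gm27520* and *Tsix*), *Azin1* (with *Gm49077*), *Paox* (with *Echs1*), *Mat2a* (with *Particl*), *Cdk19* (with *Cdk19os*), *Serpinb6a* (with *1110046J04Rik*, *Nqo2* and *Ripk1*), *Serinc3* (with *0610039K10Rik*), *Neto2* (with *Mir8109*), *Mybph* (with *Adora1*), *Adora1* (with *Mybph*), *Adhfe1* (with *2610203C22Rik*), *Nr3c2* (with *Gm10649*), *Ncoa3* (with *Sulf2*), *Ncoa1* (with *4921501I09Rik*), *Acvr2a* (with *Orc4*), *Fst* (with *Gm47040*), *H19* (with *Gm27483* and *Gm27786*), *Eef2k* (with *Gm15774*), *Fbxo32* (with *Gm15943*), *Trim54* (with *Gm15469*), *Sqstm1* (with *Mrnip*), *Optn* (with *4930551O13Rik*), *Ctsl* (with *Gm47123*), *Ctsb* (with *Fdft1*), *Map1lc3b* (with *Zcchc14*), *Atg9a* (with *Ankzf1*), *Pfkm* (with *Senp1*), *Atp2a1* (with *Rabep2*), *Mb* (with *Apol6* and *Gm49540*), *Des* (with *Gm15179*), *Itpr1* (with *Gm44040* and *Gm44101*), *Ryr3* (with *Aven*), *Cacna1s* (with *Gm37759*), *Cacnb1* (with *Gm11629*), *Tceal7* (with *Bex1*), *mt-Co1* (with *mt-Ts1*), *Cox4i1* (with *Emc8*), *Cox6a2* (with *Itgad*), *Mrpl14* (with *Tmem63b*), *Pdha1* (with *Map3k15*), *Echs1* (with *Paox*), *Pfkfb1* (with *Apex2*), *Gpi1* (with *Gm26762*), *Slc2a1* (with *Gm12868*), *Gys1* (with *Ruvbl2*), *Glul* (with *Teddm2*), *Bcat2* (with *0610005C13Rik*), *Bckdha* (with *B3gnt8*), *Shmt1* (with *Smcr8*), *Slc6a6* (with *Gm44981*), *Slc38a9* (with *Gm47827*), *Ckmt2* (with *1700119I11Rik*), *Paics* (with *Ppat*), *Ampd3* (with *B430319F04Rik* and *Rnf141*), *Gart* (with *Gm15964*), *Impdh2* (with *Ndufaf3*), *Rps2* (with *Snhg9*), *Rps28* (with *Kank3*), *Polr1a* (with *Gm26628*), *Dkc1* (with *Mpp1*), *Nop56* (with *Idh3b*), *Gadd45a* (with *E230016M11Rik*), *Ncam1* (with *Gm11149*), *Vcl* (with *Ap3m1*), *Nos1* (with *Gm26995*), *Itga7* (with *Mettl7b*), *Dysf* (with *Gm15475* and *Gm33024*), *Sspn* (with *Sspnos*), *Col6a6* (with *Gm38314*), *Col4a3* (with *C430014B12Rik*), *Gclm* (with *Gm17494*), *Prdx2* (with *Junb* and *Rnaseh2a*), *Hspb2* (with *Cryab*), *Hspe1* (with *Hspd1*), *Bhlhe41* (with *Gm43909*), *Dusp8* (with *Gm32786*), *Spred3* (with *Ggn*), *Esrra* (with *Trmt112*), *Zic1* (with *Zic4*), *Pdgfra* (with *Gm42802* and *Gm42803*), *Spns2* (with *Mybbp1a*), *Ttn* (with *Gm13938*), *Myh1* (with *Myhas*), *Myh2* (with *9430073C21Rik*), *Myh7* (with *Gm29015*, *Gm31251* and *Mhrt*).

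*Actn3* (ENSMUSG00000006457) itself was at 9641, 9812, 9946, 8592 and 10353 CPM with empty implants and at 6164 (lowest), 7276 (median) and 7703 (highest) CPM with DHT. All DHT libraries were below all empty libraries. Its log2 fold change was −0.44 (SE 0.090, q = 0.00081). The paralogue *Actn2*, the Z-disc alpha-actinin of all fibre types, was at a mean of 258 CPM with empty implants and 243 CPM with DHT, with overlapping groups (log2 fold change −0.087, q = 0.71).

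Steroid hormones act through receptors that are transcription factors and work with coactivators. Of 17 measured steroid receptors and their cofactors 2 rose, 3 fell and 12 were not called (29.4% called, median −0.0002 on the log2 scale). The receptors that fell were those of oestrogen (*Esr1*, −0.62), glucocorticoids (*Nr3c1*, −0.54) and mineralocorticoids (*Nr3c2*, −0.48). The steroid receptor coactivators *Ncoa3* (0.49) and *Ncoa1* (0.34) rose.

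Myostatin is the secreted inhibitor of muscle growth. Its gene *Mstn* (ENSMUSG00000026100) was at 155, 125, 136, 104 and 107 CPM in the empty group and 236 (lowest), 257 (median) and 313 (highest) CPM in the DHT group. Each DHT library exceeded each empty library, and the log2 fold change was 1.10 (SE 0.14, q = 2.2e-06). Of 36 measured genes of myostatin, activin and BMP signalling 4 rose, 1 fell and 31 were not called (13.9% called, median 0.085). *Gdf11*, the closest relative of *Mstn*, rose by 0.96. The calls of the BMP receptor gene *Bmpr1b* (0.49, q = 0.0037) and the co-receptor gene *Tgfbr3* (0.25, q = 0.0061) were lost without 39KR and 50KR (q = 0.02 and 0.014) and under library-size scaling. The activin receptor gene *Acvr2a* fell, with a log2 fold change of −0.28. The myostatin inhibitor gene *Fst* was not called (0.048, or −0.032 under library-size scaling, q = 0.93).

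Insulin and insulin-like growth factors (IGF) drive muscle growth through a shared receptor cascade. Of 22 measured members 7 fell and 15 were not called (31.8% called, against 11.3% of all genes), with a median of −0.20. *Grb10* (ENSMUSG00000020176), encoding an adaptor that inhibits the insulin and IGF receptors, was at 98.9, 98.9, 101, 108 and 108 CPM without and 26.2 (lowest), 36.8 (median) and 40.9 (highest) CPM with DHT. The groups lay far apart, and *Grb10* had a log2 fold change of −1.59 (SE 0.10, q = 3.6e-11). *Socs2*, an inhibitor of growth hormone signalling, fell with −2.10, the imprinted non-coding RNA gene *H19* with −1.12, the regulatory subunit gene *Pik3r1* with −0.66, the receptor genes *Igf1r* with −0.39 and *Ghr* with −0.23, and the transcription factor gene *Stat5b* with −0.37. *Igf1* was not called (0.13, q = 0.62). Downstream, 3 of 24 mTORC1 genes rose and 2 fell (20.8% called, median −0.011). The translation inhibitor genes *Eif4ebp1* (0.70) and *Eef2k* (0.39) and the mTORC1 inhibitor gene *Tsc1* (0.31) were called higher, and the stress-induced mTORC1 inhibitors *Sesn1* (−1.14) and *Sesn3* (−0.49) lower.

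Muscle loss is marked by ubiquitin ligases under FOXO control. Of 18 measured ligases and FOXO factors 2 rose, 4 fell and 12 were not called (33.3% called, median −0.082). The ligase gene *Fbxo32*, called atrogin-1, rose by 0.67 (q = 0.0034) with overlapping groups, and *Trim63*, called MuRF1, was not called (−0.034, q = 0.93). *Trim54*, which encodes a relative of MuRF1 on microtubules and Z-discs, rose by 0.67. The transcription factors *Klf15* (−1.74), *Foxo3* (−0.64) and *Foxo6* (−0.99) and the ligase gene *Fbxo40* (−0.38) fell. Of 41 proteasome genes 3 rose (7.32% called, median 0.041, or −0.033 under library-size scaling): *Psmd8* of the regulatory particle by 1.25, the activator gene *Psme4* by 0.56 and *Psmb2* of the core by 0.33. In autophagy and lysosome 6 of 41 genes rose and 5 fell (26.8% called, median 0.012, or −0.056 under library-size scaling). The receptor genes *Sqstm1* (0.52) and *Optn* (0.52), the protease gene *Atg4a* (0.66), *Map1lc3a* (0.49), *Wipi1* (0.43) and the cathepsin gene *Ctsd* (0.35) were higher. *Ctsl* (−0.75) and *Ctsb* (−0.32), encoding other lysosomal cathepsins, *Map1lc3b* (−0.37), *Atg9a* (−0.40) and the mitophagy receptor gene *Bnip3l* (−0.22) were lower.

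Myosin heavy chains set the contraction speed of a fibre, and *Myh4*, *Myh1*, *Myh2* and *Myh7* mark fibres of types 2B, 2X, 2A and 1. Shares were taken of the CPM per kb of exon, summed over 9 myosin genes. *Myh4* had a mean share of 93.1 ± 1.13% (SD, n = 5) with empty implants and 91.6 ± 2.17% (n = 6) with DHT (exact two-sided permutation test, p = 0.203). *Myh1* made up 4.36 ± 0.750% and 5.82 ± 1.502% (exact permutation p = 0.117), *Myh2* 2.22 ± 0.403% and 2.43 ± 0.681% (exact permutation p = 0.602) and *Myh7* 0.296 ± 0.180% and 0.131 ± 0.105% (exact permutation p = 0.0996). The exact test can give no p below 0.00433 with 5 against 6 libraries. None of the 9 shares passed an adjusted p of 0.05 over the 9, and 1 had an unadjusted p below 0.05, that of *Myh13*, a myosin of extraocular and laryngeal muscle (exact permutation p = 0.00866, adjusted 0.0779). *Myh13* was also the only heavy chain gene called by edgeR (−0.83), at 4.79 CPM on average with empty implants and 2.68 CPM with DHT, and the median of the 9 was −0.41. That call was lost without 39KR and 50KR (q = 0.011).

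Of 19 gene entries, matched to 18 symbols of the fast fibre programme, 3 rose and 2 fell (26.3% called, median 0.015, or −0.063 under library-size scaling). The rises were in *Myoz1* (0.41), encoding a calcineurin-binding Z-disc protein, *Pfkm* (0.38), encoding muscle phosphofructokinase, and the essential light chain gene *Myl1* (0.29). Besides *Actn3*, the fast calcium pump gene *Atp2a1* fell (−0.37, q = 0.0066), a call that was lost without 39KR and 50KR (q = 0.016). Of 17 genes of the slow programme 1 rose, 2 fell and 14 were not called (17.6% called, median −0.54). Myoglobin, *Mb*, rose by 0.79, while *Sln*, encoding the calcium pump inhibitor sarcolipin, had a log2 fold change of −1.76 and *Casq2*, encoding the calsequestrin of slow fibres, one of −0.70. Of 28 genes of Z-disc proteins 4 rose and 1 fell (17.9% called, median −0.025), with rises of 0.64 in *Tcap* (telethonin), 0.49 in *Des* (desmin) and 0.30 in *Pdlim5*. The calls of *Myl1*, *Des* and *Pdlim5* were lost without 39KR and 50KR. *Ldb3* (−0.026, q = 0.84) and *Myot* (−0.094, q = 0.54), which encode Z-disc partners of alpha-actinin, were not called. Of 9 measured genes of sarcomeric actins and stretch response 2 fell, *Mybph* and *Actc1*, and 7 were not called (22.2% called, median 0.0057, or −0.070 under library-size scaling). The main skeletal actin gene *Acta1* was at a mean of 28314 CPM with empty implants and 30953 CPM with DHT (0.13, q = 0.43).

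Calcium is released from the sarcoplasmic reticulum to start contraction and pumped back to end it. Of 27 genes for this 3 rose and 5 fell (29.6% called, median −0.068). The release channel genes *Itpr1* (0.96) and *Ryr3* (1.00) and the sarcalumenin gene *Srl* (0.35) rose. Besides *Sln*, *Casq2* and *Atp2a1*, the subunits of the voltage sensor *Cacna1s* (−0.42) and *Cacnb1* (−0.36) fell. Calcineurin, a phosphatase that calcium activates, has RCAN proteins as its inhibitors. Of 16 genes around it 3 rose and 1 fell (25.0% called, median 0.17). *Rcan2* (ENSMUSG00000039601) was at 28.8, 36.4, 30.4, 25.1 and 32.1 CPM in WT-empty and 73.8 (lowest), 81.96 (median) and 88.1 (highest) CPM in WT-DHT libraries. The groups were well separated, and the log2 fold change was 1.41 (SE 0.088, q = 1.3e-11).

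*Rcan3* (0.48) and *Mef2c* (0.41), encoding a muscle transcription factor, rose, and *Ppp3ca*, encoding the catalytic subunit of calcineurin, fell (−0.63). *Rcan1* had a log2 fold change of 0.64 and missed the threshold (q = 0.014). *Tceal7*, a transcription elongation factor-like gene known from differentiating muscle, was not called either (−0.74, q = 0.015). *Tmem100*, encoding a membrane protein downstream of BMP signalling, rose by 2.78 (q = 5.7e-09), from a mean of 11.4 ± 2.46 CPM (SD, n = 5) to 77.9 ± 16.01 CPM (n = 6).

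**Figure D2:**
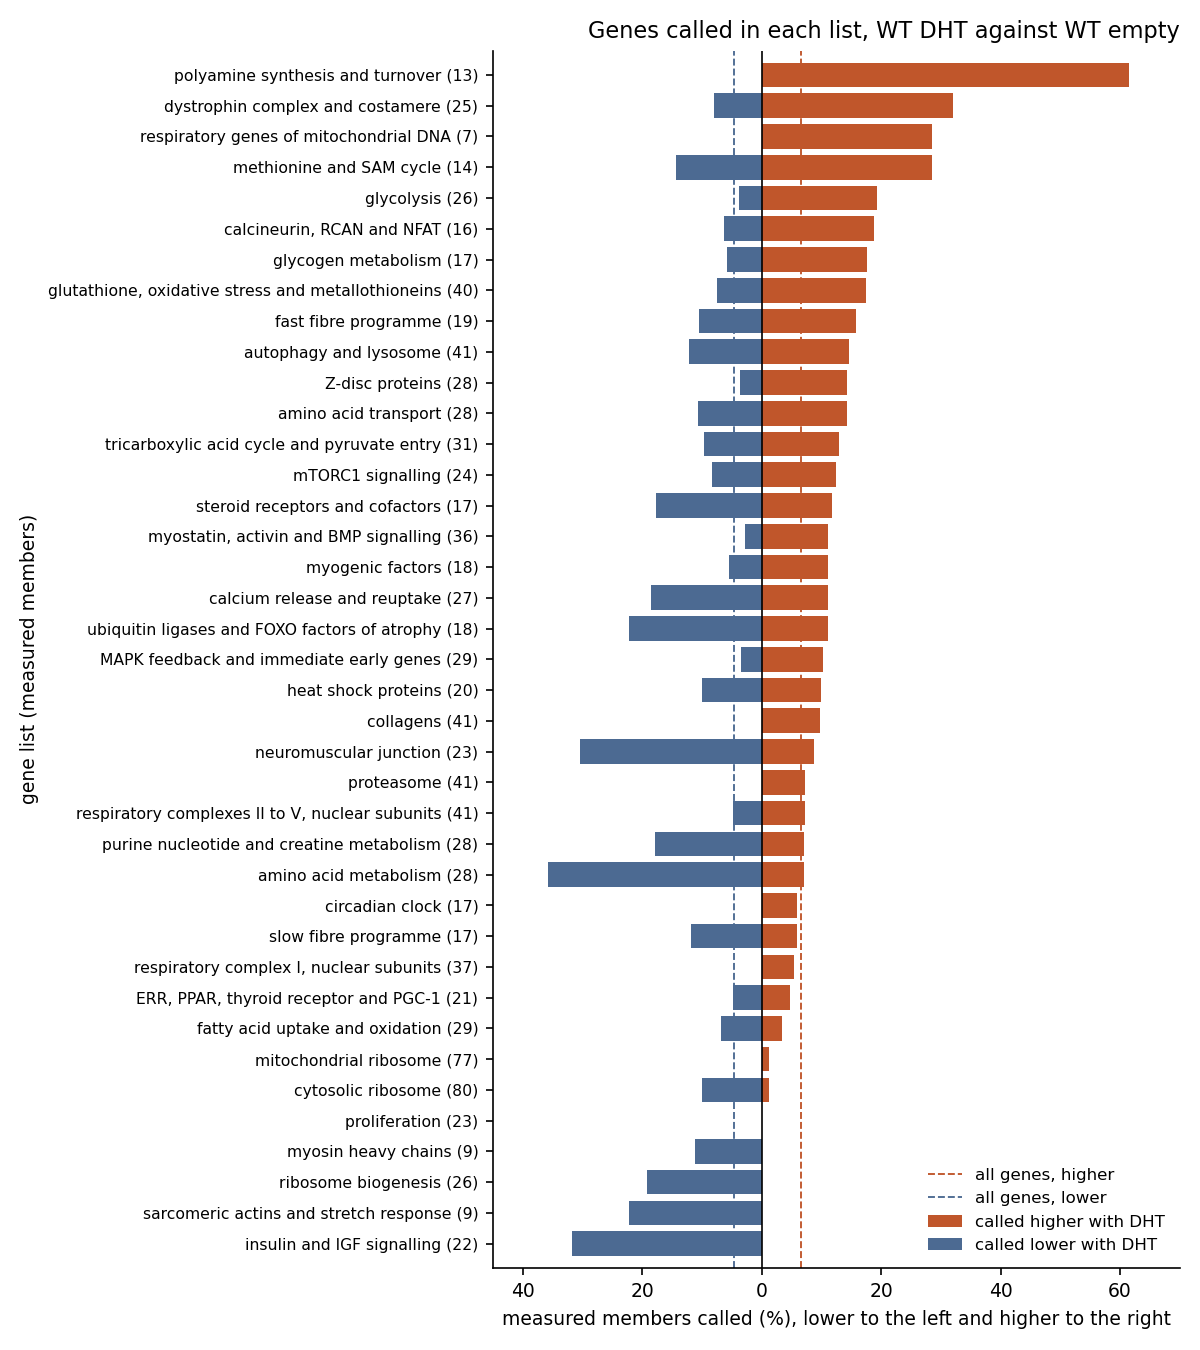
Share of the measured members of each pathway or complex list (number in brackets; the genes singled out by the study are not shown) called higher (right) or lower (left) in WT-DHT against WT-empty libraries at an edgeR q of at most 0.01, with dashed lines at the 6.63% and 4.64% of all genes called higher and lower. Of the lists shown, polyamine synthesis had the longest bar to the right, with 8 of 13 genes, of which 5 were called under library-size scaling, and amino acid metabolism the longest to the left, with 10 of 28.

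Muscle fibres draw energy from mitochondrial respiration and from glycolysis. Genes of mitochondrial DNA, 12 of which were measured, took 5.99 ± 2.46% of the counts (SD, n = 5) in WT-empty and 8.59 ± 2.80% (n = 6) in WT-DHT libraries, a difference of 2.60 percentage points (exact two-sided permutation test, p = 0.139). This difference includes WT-DHT libraries 39KR and 50KR, with 5.33% and 5.07%, against 8.61% to 11.5% in the rest of their group. For the 7 genes of mitochondrial DNA that encode proteins, examined after the data were seen, the shares were 1.95 ± 0.101% and 2.46 ± 0.193%, a difference of 0.504 points (exact permutation p = 0.00866). All 7 had a positive log2 fold change and 2 were called, *mt-Co1* (0.40) and *mt-Nd1* (0.48), with a median of 0.35. Of 37 nuclear subunits of complex I 2 rose (5.41% called, median 0.097), *Ndufs4* by 0.83 and *Ndufa4* by 0.30. Of 41 nuclear subunits of complexes II to V 3 rose and 2 fell (12.2% called, median 0.079), among them *Cox7a1* (0.54), *Cox4i1* (0.29) and *Uqcrc1* (0.27) higher and *Sdhb* (−0.32) and *Cox6a2* (−0.30) lower. Without 39KR and 50KR *Cox4i1*, *Uqcrc1* and *Cox6a2* were not called, and under library-size scaling neither *Ndufa4*, *Cox4i1* nor *Uqcrc1* was. Mitochondrial ribosome genes were called in 1 of 77, *Mrpl14* (0.37), with a median of 0.038, or −0.034 under library-size scaling. That call was lost under library-size scaling.

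In the tricarboxylic acid cycle and pyruvate entry 4 of 31 genes rose and 3 fell (22.6% called, median 0.070, or −0.0015 under library-size scaling). The rises were in the pyruvate dehydrogenase gene *Pdha1* (0.32) and in 3 genes whose call was lost without 39KR and 50KR: the pyruvate carrier gene *Mpc2* (0.49), *Pdhx* (0.21), of the dehydrogenase complex, and the activating phosphatase gene *Pdp1* (0.35). *Suclg2*, of succinyl-CoA ligase, fell (−0.42), as did *Sdhb*. *Pcx*, encoding pyruvate carboxylase, which makes oxaloacetate, fell from a mean of 331 to 108 CPM (−1.62, q = 1.6e-08). Fatty acid uptake and oxidation had 1 rise and 2 falls in 29 genes (10.3% called, median 0.12). *Acacb*, whose product limits fatty acid entry into mitochondria, rose by 0.40, and *Echs1* (−0.75), an enzyme of beta-oxidation, and the transport protein gene *Slc27a1* (−0.57) fell. The call of *Acacb* was lost under library-size scaling. Glycolysis had 5 rises and 1 fall in 26 gene entries, matched to 25 symbols (23.1% called, median 0.17). The lactate exporter gene *Slc16a3* (0.78), the hexokinase gene *Hk2* (0.67), *Pfkm*, *Pfkfb1* (0.43) and *Gpi1* (0.31) rose, and the glucose transporter gene *Slc2a1* fell (−0.61). Under library-size scaling *Pfkfb1* and *Gpi1* were not called. In glycogen metabolism 3 of 17 genes rose, glycogen synthase *Gys1* (0.40) and the phosphorylase kinase subunit gene *Phkb* (0.31) among them, and 1 fell, the phosphatase targeting subunit gene *Ppp1r3d* (−1.46), with 23.5% called and a median of 0.082.

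Genes of amino acid metabolism fell in 10 of 28 and rose in 2 (42.9% called, against 11.3% of all genes, with a median of −0.20). *Glul* (ENSMUSG00000026473), encoding glutamine synthetase, had 858, 810.0, 617, 445 and 477 CPM with empty implants and 169 (lowest), 201 (median) and 295 (highest) CPM with DHT. All DHT values were below all empty values, and the log2 fold change was −1.55 (SE 0.18, q = 4.1e-07). The breakdown of branched-chain amino acids was represented by *Bcat2*, the aminotransferase that begins it (mean 39.9 CPM with empty implants and 19.9 CPM with DHT), and by *Bckdhb* (−1.17), *Dbt* and *Bckdha* (−0.36), subunits of the ketoacid dehydrogenase complex. Falls were also called in the aminotransferase genes *Gpt2* (−0.59), *Got1* (−0.46) and *Oat* (−0.51), in *Glud1* (−0.32) and in the serine hydroxymethyltransferase gene *Shmt1* (−1.25). *Mthfd2*, an enzyme of mitochondrial folate metabolism, rose by 1.76 and *Aldh18a1*, of proline synthesis, by 0.55. Of 28 amino acid transporters 4 rose and 3 fell (25.0% called, median −0.0054). *Slc38a4* (1.02), *Slc38a2* (0.89), *Slc7a5* (0.96) and the taurine transporter gene *Slc6a6* (0.41) were higher, and *Slc43a1* (−0.69), *Slc38a9* (−0.40) and *Slc3a2* (−0.37) lower.

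Purine nucleotides and creatine buffer the energy charge of the fibre. Of 28 genes 2 rose and 5 fell (25.0% called, median 0.013, or −0.056 under library-size scaling). *Ckmt2*, the mitochondrial creatine kinase gene, rose by 0.68 and *Paics*, of purine synthesis, by 0.21. The AMP deaminase genes *Ampd1* (−0.53) and *Ampd3* (−0.55), the adenosine kinase gene *Adk* (−0.39) and the synthesis genes *Gart* (−0.26) and *Impdh2* (−0.37) fell.

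The cytosolic ribosome is built from proteins whose genes usually move together. Of 80 of them 1 rose, 8 fell and 71 were not called (11.2% called, close to the share of all genes), and 67 had a log2 fold change below 0, with a median of −0.17. *Rplp0* (−0.43), of the ribosomal stalk, *Rpsa* (−0.31), *Rpl7a* (−0.41), *Rpl11* (−0.32), *Rpl23* (−0.28), *Rps2* (−0.42) and *Rps28* (−0.29) were among those called lower, and *Rps14* (0.30) was called higher. Of 26 ribosome biogenesis genes 5 fell (19.2% called, median −0.051). *Myc*, the transcription factor that drives ribosome production, fell from 3.80 ± 0.280 CPM (SD, n = 5) to 1.27 ± 0.281 CPM (n = 6), with a log2 fold change of −1.57 (q = 2.6e-05). The RNA polymerase I subunit genes *Polr1a* (−0.26) and *Polr1b* (−0.34) and the nucleolar protein genes *Dkc1* (−0.47) and *Nop56* (−0.33) fell as well.

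At the neuromuscular junction, where the motor nerve meets the fibre, 2 of 23 genes rose and 7 fell (39.1% called, median −0.25). *Musk* (ENSMUSG00000057280), encoding the receptor kinase that clusters acetylcholine receptors, was at 20.5, 25.8, 22.6, 13.3 and 20.6 CPM in the empty group and 72.1 (lowest), 84.5 (median) and 94.8 (highest) CPM in the DHT group. The groups did not come near each other, and the log2 fold change was 2.04 (SE 0.13, q = 1.3e-11). *Dok7*, encoding the cytoplasmic activator of the same kinase, rose by 0.66. Besides *Fgfbp1*, falls were called in *Ngfr* (−3.04), encoding a neurotrophin receptor, in *Gadd45a* (−0.89) and *Ncam1* (−0.84), which rise in denervated muscle, and in the acetylcholine receptor subunit gene *Chrnb1* (−0.39). The myogenic factor gene *Myog* fell as well (−1.06), and so did *Etv5* (−0.50), a transcription factor gene of the junctional nuclei. Of 18 myogenic factors 2 rose, *Hes1* (0.85) and *Eya4* (0.44), and 1 fell, *Myog* (16.7% called, median 0.18), with *Eya4* not called under library-size scaling.

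The dystrophin complex and the costamere tie the sarcomeres to the membrane and the matrix. Here 8 of 25 genes rose and 2 fell (40.0% called, median 0.13). *Vcl* (1.02), encoding vinculin, had the largest rise, and others were in *Cav3* (0.64), encoding the caveolin of muscle, and in *Nos1* (0.64), *Itga7* (0.38), *Itgb1* (0.36), *Dysf* (0.36) and *Sspn* (0.36). The syntrophin gene *Sntb1* (−1.28) and the talin gene *Tln2* (−0.32) fell. Collagens rose in 4 of 41 genes (9.76% called, median 0.23): *Col6a6* (1.37), *Col7a1* (0.99), *Col4a4* (0.77) and *Col4a3* (0.66).

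Glutathione and its enzymes detoxify peroxides and foreign compounds. Of 40 genes of glutathione, oxidative stress and metallothioneins 7 rose and 3 fell (25.0% called, median 0.016, or −0.052 under library-size scaling). The rises took in *Mgst3* (1.01), the glutamate-cysteine ligase genes *Gclc* (0.58) and *Gclm* (0.55), *Sod1* (0.42), the peroxiredoxin genes *Prdx1* (0.36) and *Prdx2* (0.23) and *Srxn1* (0.42). Of these 7, *Sod1*, *Prdx1*, *Prdx2* and *Srxn1* were not called under library-size scaling. Besides *Gstm2*, *Gstm1* (−0.85) and the secreted glutathione peroxidase gene *Gpx3* (−1.07) fell. Of 20 heat shock protein genes 2 rose, *Hspb8* (0.62) and *Hspb2* (0.47), and 2 fell, *Hspb3* (−0.29) and *Hspe1* (−0.31), with a median of 0.19. The falls of *Hspb3* and *Hspe1* were not called without 39KR and 50KR. Of 17 clock genes 1 rose (5.88% called, median −0.010), *Bhlhe41*, a repressor of the clock, by 1.54. Of 29 genes of MAPK feedback and immediate early response 3 rose, *Fos* (1.05), *Dusp8* (0.53) and *Spred3* (1.00), and 1 fell, *Etv5* (13.8% called, median 0.11). Without 39KR and 50KR *Dusp8* and *Etv5* were not called. Among 21 genes of ERR, PPAR, thyroid receptor and PGC-1, *Esrra* rose (0.34) and *Nr4a3* fell (−2.23), with 9.52% called and a median of −0.033. The call of *Esrra* was lost under library-size scaling and without 39KR and 50KR. Of 23 proliferation genes edgeR called 0, DESeq2 1 and limma-voom 0, and 4 had an unadjusted p below 0.05 (median −0.11).

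Markers of other cell types were summed in each library. In bulk muscle, fewer cells of a type and less RNA per cell cannot be told apart. Endothelial markers, led by *Pecam1*, summed to 263 to 325 CPM (median 283) with empty implants and 332 to 397 CPM (median 364) with DHT, without overlap. All 10 of them had a positive log2 fold change and 2, *Tie1* (0.45) and *Pecam1* (0.33), were called (median 0.33), the latter not under library-size scaling or without 39KR and 50KR. The 10 markers of smooth muscle and pericytes, led by *Des*, which fibres also express, summed to 2526 to 3185 CPM (median 2595) with empty implants and 2959 to 4188 CPM (median 3625) with DHT, with *Rgs5* (0.45) and *Des* called higher (median 0.12). White adipocyte markers, led by *Cfd*, summed to 566 to 1359 CPM (median 1051) with empty implants and 413 to 954 CPM (median 628) with DHT, with 9 of 10 below 0 (median −0.53). *Cfd* was called lower (−1.20, q = 0.009), and the call was lost without 39KR and 50KR (q = 0.017). Brown adipocyte markers, led by *Pdk4*, which fibres also express, summed to 552 to 937 CPM (median 713) with empty implants and 859 to 1039 CPM (median 879.9) with DHT, with 1 of 9 called, *Zic1* (0.79), and a median of −0.47, or 0.12 when at least 10 counts in every library were required. Fibroblast markers, led by *Col3a1*, summed to 1647 to 2569 CPM (median 2097) with empty implants and 1836 to 3724 CPM (median 2500.1) with DHT, with *Dcn* called higher (0.54, but not under library-size scaling) and *Pdgfra* lower (−0.44) of 11 (median −0.050). The part of these cell types in the results was not tested.

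Of the markers of tenocytes, satellite cells, macrophages, lymphocytes, neutrophils, erythroid cells, Schwann cells and keratinocytes, edgeR called 0 in the WT comparison. Satellite cell markers, led by *Sdc4*, summed to 84.97 to 109.5 CPM (median 88.9) with empty implants and 70.9 to 92.5 CPM (median 83.03) with DHT, and all 8 were below 0 (3 with an unadjusted p below 0.05, median −0.22). Schwann cell markers, led by *Pmp22*, summed to 71.2 to 94.2 CPM (median 87.3) with empty implants and 54.95 to 92.03 CPM (median 71.5) with DHT, all 8 below 0 (2 with an unadjusted p below 0.05, median −0.36). Neutrophil markers, of which 3 were measured and *S100a9* was the most abundant, summed to 0.346 to 1.19 CPM (median 0.454) with empty implants and 1.17 to 17.7 CPM (median 3.51) with DHT (3 with an unadjusted p below 0.05, median 3.93). Erythroid markers, led by *Hbb-bs*, summed to 67.1 to 275 CPM (median 143) with empty implants and 156 to 384 CPM (median 224) with DHT (1 of 6 with an unadjusted p below 0.05, median 0.74) and macrophage markers, led by *Lyz2*, to 189 to 274 CPM (median 207) with empty implants and 198 to 327 CPM (median 221) with DHT (0 of 10 with an unadjusted p below 0.05, median 0.18). Tenocyte markers, led by *Fmod*, summed to 90.05 to 168 CPM (median 128) with empty implants and 71.6 to 294 CPM (median 133) with DHT (1 of 8 with an unadjusted p below 0.05, median 0.46), and lymphocyte markers, led by *Ighm*, to 61.2 to 104 CPM (median 84.4) with empty implants and 74.9 to 136 CPM (median 89.7) with DHT (0 of 3 with an unadjusted p below 0.05, median 0.30). Keratinocyte markers, of which 2 were measured with *Trp63* the more abundant, summed to 10.9 to 16.6 CPM (median 12.2) with empty implants and 8.43 to 12.7 CPM (median 10.99) with DHT (1 of 2 with an unadjusted p below 0.05, median 0.053, or −0.0077 under library-size scaling). DESeq2 called 2 neutrophil markers and 1 satellite cell marker, and limma-voom called 0 of these 8 lists. No measured marker of any cell type was at 0 in a WT library, and the part of these cell types in the results was not tested.

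The same contrast in KO libraries called 784 genes (4.62%), 486 higher (2.86%) and 298 lower (1.75%). Both genotypes called 487 genes, which was 25.4% of the WT calls and 62.1% of the KO calls, and 485 of them changed in the same direction. Whether the WT response itself differed from that in KO was tested by the interaction, the log2 fold change in KO minus that in WT, which shares the WT libraries with the WT comparison. At q of at most 0.05 it called 550 genes (3.24%), and 662 without 39KR and 50KR. Of the cell type markers it called all 3 measured for neutrophils, 1 of 6 for erythroid cells and 1 of 9 for brown adipocytes. The median log2 fold change of the neutrophil markers, which had few reads, was 3.93 in WT and −3.65 in KO. The WT change of *Mybph* (−4.59) was met by −0.58 in KO, an interaction of 4.01 (SE 0.27, q = 2.2e-09). *Saraf*, encoding a regulator of store-operated calcium entry, rose by 1.75 in WT against 0.10 in KO (interaction −1.65, q = 1.3e-08). *Tekt1* had 4.92 in WT and 0.43 in KO (interaction −4.49, q = 1.5e-08), *Cacna2d4* 4.23 and 1.36 (−2.87, q = 1.5e-08) and *Gstm2* −2.51 and −0.75 (1.76, q = 1.3e-08).

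*Amd1*, *Smox* and *Odc1* were called higher in both genotypes, and the interaction was called for *Amd1* (KO 2.80, interaction −0.65, q = 0.0061), *Smox* (KO 1.62, interaction −1.45, q = 0.00012) and *Odc1* (KO 1.11, interaction −1.21, q = 9.9e-05). Other genes changed to a degree that the test did not tell apart: *Tmem132b* (WT 6.18, KO 5.24, interaction −0.94, q = 0.36), *Slc30a2* (KO 4.80, q = 0.87), *Actr3b* (KO 4.18, q = 0.54) and *Lrtm1* (WT −3.34, KO −3.22, q = 0.88). The study itself singled out 8 genes, *Mybph* among them, because genotype altered their response to both DHT and ORX by its test of these samples, so neither their changes nor their interaction values are independent evidence. In WT spinalis *Spns2* (2.14), a sphingosine-1-phosphate transporter gene, *Itpr1* (0.96), *Ttll7* (1.07), encoding a tubulin polyglutamylase, and *Syne1* (0.70), encoding a nuclear envelope protein, rose. *Mybph*, *2310016D23Rik* (−1.90), *Pitpna* (−0.77), encoding a phosphatidylinositol transfer protein, and *Ampd1* fell.

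**Figure D3:**
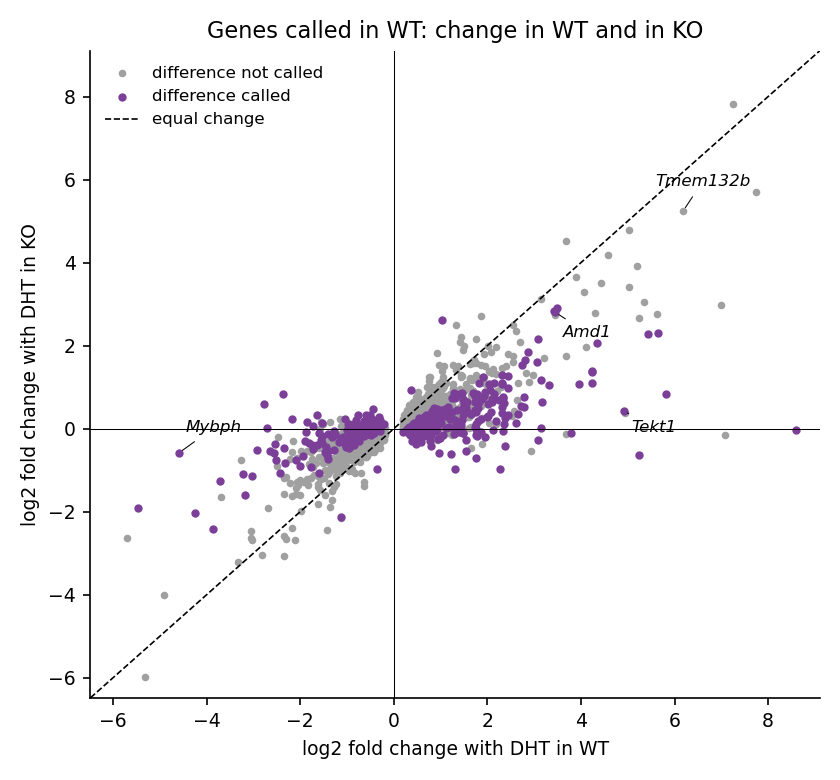
Log2 fold change with DHT in KO (vertical) against that in WT (horizontal) for the 1914 genes called in WT, in purple where the difference between genotypes passed the interaction test at a q of at most 0.05 and in grey where it did not, with a dashed line at equal change. Labels mark *Mybph*, *Tekt1*, *Amd1* and *Tmem132b*, of which *Tmem132b* did not pass the interaction test.

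Removing the testes takes away the main source of testosterone, while the implant adds DHT to females. The WT-ORX comparison thus served as a second view of the genes that DHT changed, though with another androgen, muscle, sex and age. Of 17514 genes 955 were called with ORX (5.45%), 358 higher (2.04%) and 597 lower (3.41%), or 422 higher and 354 lower under library-size scaling. Of the 1870 DHT-called genes that the ORX table also lists, 574 were called with ORX (30.7% of them and 60.6% of the 947 ORX-called genes listed in both tables). They changed in opposite directions in 565 and in the same direction in 9. With ORX *Amd1* had a log2 fold change of −2.18 (q = 2.4e-15), *Amd2* −2.49, *Amd-ps3* −2.11, *Cdk19* −1.63 and *Gstm2* 1.49 (q = 4.5e-10), each opposite to its change with DHT. *Mybph* rose by 2.98 and *Actc1* by 2.55 with ORX, and *Smox* (−1.94) and *Odc1* (−1.52) fell. The called genes with the smallest p that moved in the same direction in both were *Ano5* (DHT −0.42, ORX −0.19), encoding a membrane repair protein, *Pdgfra* (−0.44 and −0.23), a receptor gene of fibro-adipogenic cells, *Gm13943* (0.54 and 0.54), *Oaz2* (0.31 and 0.27) and *Gpx3* (−1.07 and −0.65). *Fgfbp1* (0.74, q = 0.047) and *Mstn* (−0.40, q = 0.016) were not called with ORX, and whether the DHT and ORX changes of a gene differ was not tested.

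Because receptors of the steroid hormone family bind DNA at pairs of 6-letter parts, the promoters of the genes that moved together were searched for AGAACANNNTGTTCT, which reads the same on both strands, in the 300 bases around each start (250 before and 50 after). The sequences are those of RefSeq for GRCm38.p6, and they cover 11118 of the genes tested with 14215 promoters. The motif without a mismatch was present in 1 of these promoters (0.00703%), that of *Sgk1*, and in 3 of all 32851 promoters of the table (0.00913%). With at most 2 mismatches it was in 160 of the 14215 (1.13%), in 11 of 1102 promoters of genes called higher (0.998%) and in 14 of 743 of genes called lower (1.88%). Either 6-letter part was in 13.0%, 13.8% and 11.8% of them. Promoters of *Amd1*, *Odc1* and *Smox* hold neither the motif with up to 2 mismatches nor a 6-letter part in this window. *Sgk1*, encoding a kinase that regulates ion transport, was at 137, 125, 87.3, 187 and 136 CPM with empty implants and 186 (lowest), 201 (median) and 237 (highest) CPM with DHT. The highest empty value, of 35KR, lay just inside the range of the DHT group. *Sgk1* rose by 0.62 (SE 0.17, q = 0.0082), and no longer passed the threshold without 39KR and 50KR (q = 0.027).

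The 4 promoters shown are that of *Sgk1* (chr10:21993640-21993939, plus strand), the only exact match, that of *Plpp3* (chr4:105157097-105157396, plus strand), with 1 mismatch, and those of *Lrtm1* (chr14:29017958-29018257, plus strand) and *Pcx* (chr19:4594069-4594368, plus strand), with 2 mismatches each and among the falls named above. *Sgk1* and *Plpp3*, a lipid phosphatase gene that rose by 0.68, were chosen for this after their values were seen. The stretch that matches the motif is in capitals, and the match describes the letters only.
Sgk1: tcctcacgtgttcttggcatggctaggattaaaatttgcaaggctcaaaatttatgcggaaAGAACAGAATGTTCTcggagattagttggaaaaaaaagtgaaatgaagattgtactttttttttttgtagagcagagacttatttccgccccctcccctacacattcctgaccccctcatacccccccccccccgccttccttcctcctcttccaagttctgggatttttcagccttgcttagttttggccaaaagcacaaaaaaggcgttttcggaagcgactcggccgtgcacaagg
Plpp3: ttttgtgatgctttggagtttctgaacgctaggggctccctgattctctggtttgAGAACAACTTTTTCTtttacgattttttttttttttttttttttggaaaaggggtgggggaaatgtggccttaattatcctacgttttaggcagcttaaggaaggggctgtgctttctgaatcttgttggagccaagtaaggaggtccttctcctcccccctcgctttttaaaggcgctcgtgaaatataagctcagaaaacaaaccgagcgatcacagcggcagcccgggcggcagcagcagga
Lrtm1: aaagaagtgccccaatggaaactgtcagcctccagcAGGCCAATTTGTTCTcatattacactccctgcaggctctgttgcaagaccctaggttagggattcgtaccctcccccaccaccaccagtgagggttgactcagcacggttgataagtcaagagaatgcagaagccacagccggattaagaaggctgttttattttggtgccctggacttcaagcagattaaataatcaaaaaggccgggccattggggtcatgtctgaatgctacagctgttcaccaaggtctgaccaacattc
Pcx: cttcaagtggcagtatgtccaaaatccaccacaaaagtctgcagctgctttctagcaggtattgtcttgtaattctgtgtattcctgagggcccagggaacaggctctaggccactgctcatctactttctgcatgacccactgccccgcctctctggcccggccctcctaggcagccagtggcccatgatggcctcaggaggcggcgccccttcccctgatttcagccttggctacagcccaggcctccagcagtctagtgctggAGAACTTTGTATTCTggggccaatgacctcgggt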

How the data were processed

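The gene counts were made by the authors, who per the deposited processing notes and methods aligned the reads to GRCm39 with STAR 2.7.1b, marked duplicates with Picard 2.20.2 and counted reads per gene with featureCounts of Subread 2.0.0. SAMtools 1.9 is also named. They were used as whole numbers without change. Symbols came from a gene name table. Exon lengths, overlaps on opposite strands and gene types came from GENCODE M21, which is on GRCm38, matched by Ensembl identifier: of 16987 genes 16922 were matched and 65 were not.

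Genes needed 0.5 CPM in at least 2 libraries, which removed 0. Libraries were scaled by TMM in edgeR 4.0.16, and the 4 implant groups shared 1 fit with a quasi-likelihood F test. Other settings used DESeq2 1.42.0, limma 3.58.1, library-size scaling, a minimum of 10 counts in every library and the fit without each WT library in turn. R 4.3.3, Python 3.11.15, SciPy 1.17.1 and matplotlib 3.10.9 were used. In simulated counts the fit called 152 of 200 changed genes and made 2 false calls. The simulation held no split between libraries of a group, so it cannot show how the fit handles one.

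Genes were named by rule: the 12 smallest p of each direction, the 8 largest rises and falls, up to 6 called members of a list and 5 each by interaction and ORX, besides genes chosen by name. Not all genes that met these rules are reported here. Members and lists were chosen with earlier results of these data known. Genes beyond these were named after their values were seen.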

Additional observations from a re-analysis of the deposited data

Results flagged for a closer look

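Total counts were lowest in WT_DHT_39KR, 34800000, far from the other libraries of its group, whose next value was 50500000. Cdk19 in WT_DHT_8KR (104 CPM) lay above the other WT-DHT libraries. In WT_Empty_14KR the summed neutrophil markers (1.19 CPM), the summed keratinocyte markers (16.6 CPM) and the share of Myh3 among the myosin heavy chains (0.0153%) lay above the rest of the group, as did the share of Myh6 in WT_Empty_4KR (0.00321%). These were 6 of 94 groups of values examined (6.38%), and chance alone sets 1 library this far apart in about 1 of 20 groups.

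Of the 550 genes that passed the interaction test, the log2 fold change in KO minus that in WT, the text gives values for Mybph (4.01), Gstm2 (1.76), Amd1 (−0.65), Odc1 (−1.21), Smox (−1.45), Saraf (−1.65), Cacna2d4 (−2.87) and Tekt1 (−4.49).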

How the results depend on the processing

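The count of 1914 genes called in WT became 2301 with DESeq2, 1919 with limma-voom, 1768 with library-size scaling, 1792 with at least 10 counts in every library and 1687 in a fit of the WT libraries alone. At a threshold of 0.05 it was 3078. In KO, DESeq2 called 1201 genes against 784 by edgeR. Library-size scaling changed the split of directions: 43.6% of the WT calls were higher against 58.8%, 55.1% of the interaction calls positive against 41.5%, and 54.4% of the ORX calls higher against 37.5%. The cause was not tested.

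With each WT library left out in turn the WT count ranged from 1607 (without 8KR) to 1835 (without 5KR), and 1369 of the 1914 genes (71.5%) were called in all 11 fits. The interaction count ranged from 434 (without 8KR) to 591 (without 50KR). Without 39KR and 50KR, a choice made after seeing the data, the counts were 1689 and 662. Of these 662 interaction calls 331 were positive and 331 negative, or 50.0% positive against 41.5% with all libraries.

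Of the 231 called genes named above, 66 were no longer called under at least 1 other setting. Library-size scaling lost 37: Acacb, Aldh18a1, Azin1, Bmpr1b, Bnip3l, Cox4i1, Dcn, Dysf, Esrra, Eya4, Gpi1, Gys1, Itgb1, Mrpl14, Myl1, Ncoa1, Ndufa4, Oaz1, Oaz2, Paics, Pdhx, Pdlim5, Pdp1, Pecam1, Pfkfb1, Prdx1, Prdx2, Rps14, Sgk1, Slc6a6, Sod1, Srxn1, Sspn, Tgfbr3, Tsc1, Uqcrc1 and Wipi1. Leaving out 39KR and 50KR lost 33 genes, those not yet listed being Atp2a1, Cfd, Cox6a2, Des, Dusp8, Etv5, Fbxo32, Ghr, Hspb3, Hspe1, Mpc2, Myh13, Polr1a, Rpl11, Rps28 and Slc3a2. Leaving out 1 library lost 45 in at least 1 fit, those not yet listed being Casq2, Nos1, Polr1b, Rpl23, Rps2, Slc7a5, Sln, Spred3 and Tln2. The fit of the WT libraries alone lost 30, with Acvr2a, Cacna1s and Stat5b besides those listed, and limma-voom lost 4, with Ngfr besides.

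Of 54 list medians 18 had another sign under at least 1 setting, 10 of them under library-size scaling, as given beside their values. Of these 10, autophagy, the fast fibre programme, sarcomeric actins, purine metabolism, glutathione and keratinocyte markers also changed sign in some fits with 1 library left out, the fast fibre programme to −0.031 without 39KR, glutathione to −0.0182 without 49KR and autophagy to −0.0107 without 7KR. The other 8 were those of steroid receptors, mTORC1, Z-disc proteins, amino acid transport, clock genes, muscle fibre markers and fibroblast markers, each with 1 library left out, and of brown adipocyte markers. The median of sarcomeric actins was also below 0 with limma-voom, with at least 10 counts in every library, in the fit of the WT libraries alone and in 7 of the 11 fits with 1 library left out (−0.0556 without 8KR).

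With 1 library left out, further list medians kept their sign but moved by more than 1.5 times. Their ranges over the 11 fits were: for methionine and SAM cycle 0.0286 to 0.0813, for myostatin, activin and BMP signalling 0.0562 to 0.1181, for ubiquitin ligases and FOXO factors of atrophy −0.15 to −0.0542, for proteasome 0.016 to 0.0532, for calcium release and reuptake −0.1177 to −0.0462, for respiratory complex I 0.0427 to 0.1234, for respiratory complexes II to V 0.052 to 0.1136, for tricarboxylic acid cycle and pyruvate entry 0.0428 to 0.0902, for fatty acid uptake and oxidation 0.0681 to 0.1735, for glycogen metabolism 0.0403 to 0.0941, for mitochondrial ribosome 0.0156 to 0.0873, for ribosome biogenesis −0.0881 to −0.0291, for ERR, PPAR, thyroid receptor and PGC-1 −0.0531 to −0.0013, for proliferation −0.1613 to −0.0543, for neuromuscular junction −0.2769 to −0.1005, for MAPK feedback and immediate early genes 0.0515 to 0.1944, for heat shock proteins 0.1072 to 0.2688, for collagens 0.1426 to 0.3078, for white adipocyte −0.8065 to −0.399, for brown adipocyte −0.7184 to −0.1756, for smooth muscle and pericyte 0.0426 to 0.2234, for tenocyte 0.2661 to 0.6417, for macrophage and monocyte 0.0856 to 0.2494, for lymphocyte 0.1678 to 0.3955, over all genes −0.0103 to −0.0011.

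Some genes that were not called changed sign. Fst had a log2 fold change between −0.1189 and 0.2015 with 1 library left out, −0.0324 with library-size scaling and −0.0399 without 39KR and 50KR. Ldb3 ranged from −0.0527 to 0.0085. Myh2 ranged from −0.1533 to 0.0884, and had 0.1253 without both libraries. Pmp22 ranged from −0.125 to 0.0443, and had 0.0791 without both. Sdc4 ranged from −0.1504 to 0.0344. Trim63 ranged from −0.1207 to 0.2358, and had 0.0152 with limma-voom. The difference in the share of Myh2 among the myosin heavy chains ranged from −0.0236 (without 15KR) to 0.387 (without 39KR) percentage points. The differences in the shares of Myh4 and Myh7 also rested in part on single libraries. WT-DHT library 15KR had the lowest Myh4 share of all (88.4%) and WT-empty library 4KR the highest Myh7 share (0.540%).

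The share of counts from mitochondrial DNA differed by 0.504 percentage points (exact permutation p = 0.00866) when limited to the 7 protein-coding genes, a choice made after seeing the data. The first principal component held 62.5% of the variance with the 500 most variable genes, against 38.3% with all genes.

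No paired analysis was run, because the tags of the libraries are in no label and no tag occurs in both groups. Some tags of both groups are neighbouring numbers, such as 14KR (WT-empty) and 15KR (WT-DHT). No label says whether such libraries belong together, and a block on them was not tested. For ORX, the numbers in the labels entered as a replicate block gave 934 genes against 955.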
